A study of Drosophila melanogaster with 2 samples.

Results

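The 62 genes described here are known only by a CG number in the deposited table, lie on chromosome 3, and had at least 2-fold more RNA in *heph2* males than in control males. They were chosen by their measured values: an FPKM above 0 in both libraries, a mean of both FPKM values from 1 to 100, and a log2 ratio of *heph2* to control of 1 or more. Genes from 500 kb before *heph* to the end of the right arm were left out. FPKM stands for the number of sequenced fragments of a gene, divided by its transcript length and by a size set for the library. How that size was set for the deposited values is not stated. It differed from the mapped reads of the study, and scaling on those takes 0.28 from every log2 ratio. Of the 14794 genes of the table, 2607 met every condition but that on the ratio, so that 62 of 2607 genes, or 2.38%, were members. This share is what the rule fixed and is not a finding. The RNA-Seq data came from polyadenylated RNA of whole adult males, sampled 1 to 3 days after eclosion, with 1 library of *heph2* homozygotes and 1 control library of *heph2/TM3* males. The control males thus carried the same P element allele of *heph* on 1 copy of chromosome 3, over the balancer *TM3*. Each genotype was a single library, so no value below has a replicate check, no p-value was computed, and each comparison is between these 2 libraries. An effect of the *heph2* mutation, an effect of other alleles on the *heph2* or *TM3* chromosome, and a difference between these 2 batches of flies cannot be told apart.

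The gene *heph* encodes the fly polypyrimidine tract-binding protein, an RNA-binding protein that recognises pyrimidine-rich stretches and acts in splicing, mRNA stability and translation, and *heph2* males are sterile because spermatids fail to individualize. A CG number is the name that the fly genome annotation gives to a predicted gene that has not been named for a mutant or a function. Balancers such as *TM3* carry multiple inversions and their own set of alleles, and keep a mutant chromosome from recombining. The study gives the genotypes as *heph2/heph2* for the mutant males and *heph2/TM3* for the control males. Whether the *heph2* chromosomes of the mutant males were identical along their length is not stated. The genotypes of the other chromosomes are not given in the sources used here. Of the 62 genes, 11 have since been given a symbol in the reference tables (*edin*, *Zasp67*, *St2*, *rdhB*, *Alp9*, *NijB*, *Recs1*, *Gba1a*, *Alp10*, *l(3)72Dp* and *Gcat*), 47 still carry the CG number, and 4 have no entry there. All 57 members found in the later BDGP6 annotation are protein-coding.

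The targeted gene *heph* itself had 27.2 FPKM in *heph2* and 44.0 FPKM in the control. These gene-level values do not separate truncated from full-length *heph* RNA. The study reports that most *heph* RNA of *heph2* homozygotes is truncated at the insertion, with little full-length RNA left. Both libraries came from males according to the study, and several marker lists differed between them. All 8 testis genes of a fixed list were detected in both libraries, summing to 15010.9 FPKM in *heph2* and 9099.02 FPKM in the control. Of 12 eggshell and yolk genes, none was listed at 0 in either library, and they summed to 29.1 FPKM in *heph2* and 318 FPKM in the control, with 9 of the 11 compared at least 2-fold lower in *heph2*. These served as female markers, so the lists do not show the control library to be purely male. The source of the eggshell and yolk RNA was not tested. Of 11 heat shock genes compared, 9 were at least 2-fold higher in *heph2*, of 14 flight muscle genes 3, and of 7 midgut protease genes 3, and none of these 3 lists had a gene at least 2-fold lower. Other *Jon* protease genes, outside the midgut list, went both ways. *Jon65Aii* had 58.0 FPKM in *heph2* and 17.1 FPKM in the control, while *Jon99Fi* had 28.1 FPKM in *heph2* and 81.6 FPKM in the control. Of the fat body genes, *Lsp2* and *Fbp1* were both at least 2-fold higher, summing to 682 FPKM in *heph2* and 218 FPKM in the control. The 6 accessory gland genes had a median log2 ratio of -0.88. The part of these tissues and responses in the results below was not tested. In bulk RNA, a change in the number of cells of a type cannot be told apart from a change in RNA per cell. Across all 11962 genes compared, those above 0 in both libraries that averaged 1 FPKM or more, the median log2 ratio was 0.01, with 2.79% at least 2-fold higher in *heph2* and 2.44% at least 2-fold lower.

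The 62 members had between 1.47 and 132 FPKM in *heph2*, with a median of 13.7 FPKM, and between 0.0445 and 56.2 FPKM in the control, with a median of 6.03 FPKM. Together they made up 0.138% of all FPKM in *heph2* and 0.0653% in the control. Most lay close to the threshold: 35 of the 62 were less than 2.5-fold higher, 14 were at least 3-fold higher and 6 at least 4-fold higher. The median log2 ratio was 1.29, with the middle 50% between 1.12 and 1.54, while over all 2607 genes the median was -0.02. Just inside the threshold, *CG32407*, *CG6277* and *CG13071* each had a log2 ratio of 1.02, and just outside it *CG5500* had 0.99, *CG31542* 0.98 and *CG9619* 0.96. In 10 members the control value was under 1 FPKM, so that these passed the minimum level only through *heph2*. Scaled on mapped reads, 32 of the 62 were still at least 2-fold higher, and scaled on ribosomal protein genes 19. The plot of FPKM by library shows the size of each difference, and the plot of ratio against level shows where the members lie among the other genes.

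**Figure D1:**
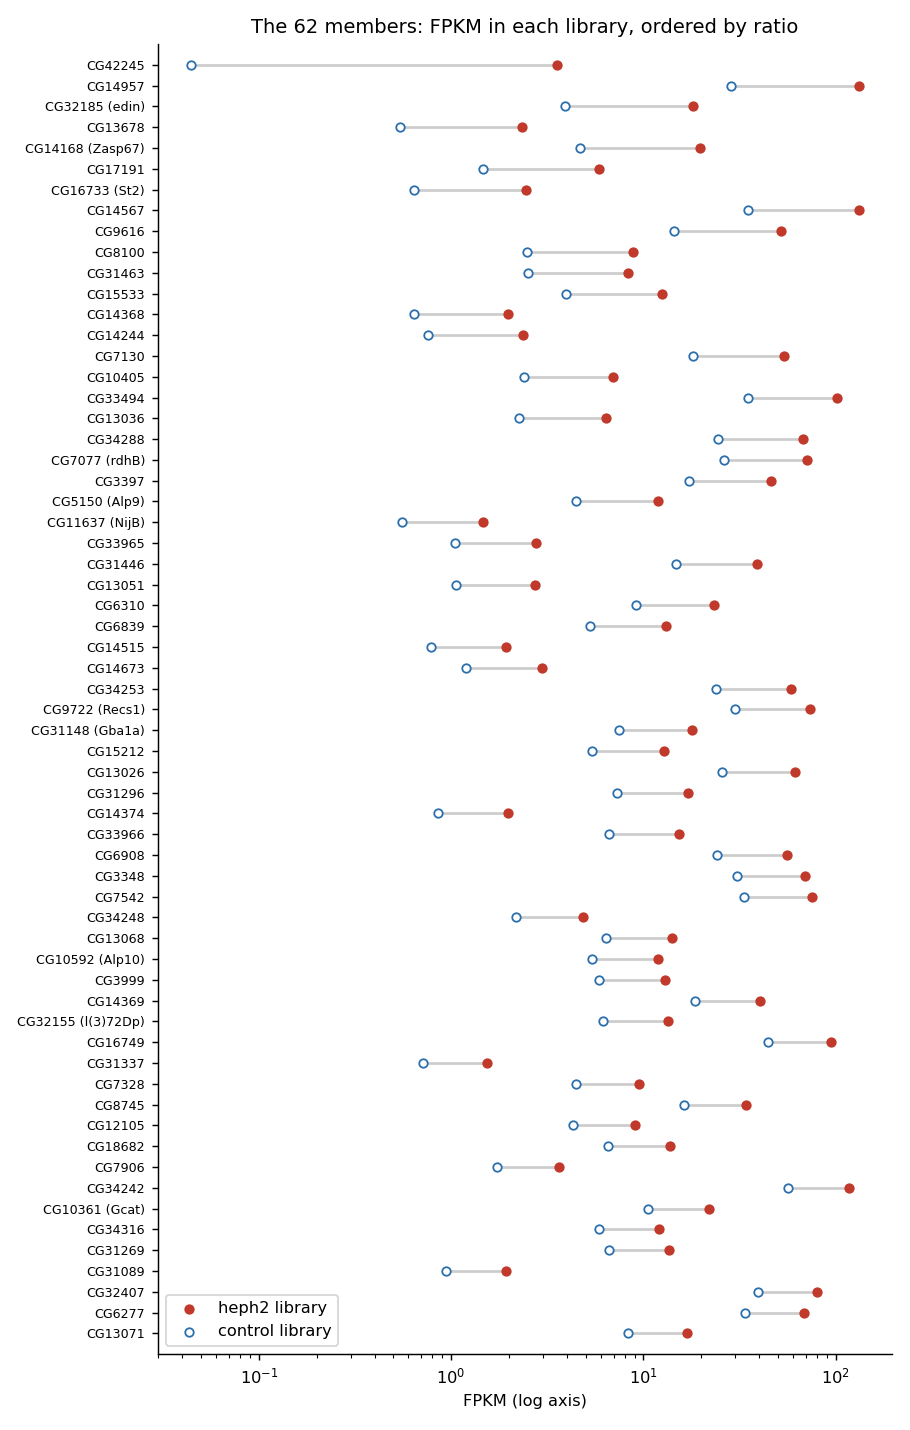
FPKM of each of the 62 members (log axis) in the *heph2* library (filled) and the control library (open), 1 library per genotype, ordered from the largest ratio at the top. The gap of *CG42245* stands apart, and 35 of the 62 members are less than 2.5-fold higher in *heph2*.

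**Figure D2:**
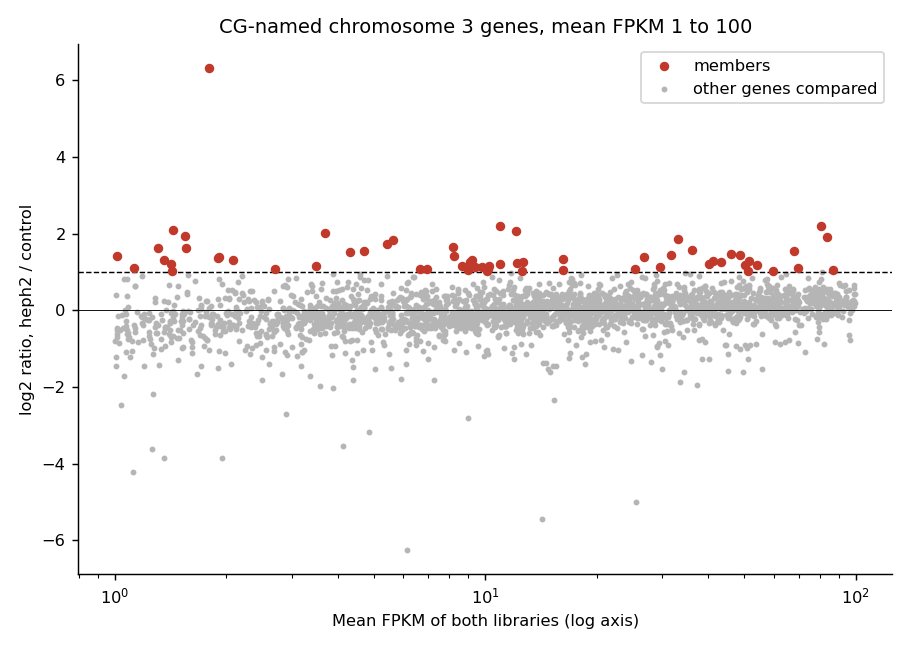
Log2 ratio of *heph2* to control against the mean FPKM of both libraries (log axis) for the 2607 CG-named chromosome 3 genes in the FPKM window, each point a gene. Members lie above the dashed line at 1 by the rule, at all levels, and only *CG42245* lies above 3.

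The largest difference was that of *CG42245* (FBgn0250911), which had 3.55 FPKM in *heph2* and 0.0445 FPKM in the control. From about 527 *heph2* reads and 10 control reads this is a 79.8-fold ratio, with a 95% counting interval of 43.9 to 171. This interval, like those below, is an exact Clopper-Pearson interval on estimated reads and covers counting error only. In r5.44 coordinates the gene is listed in the region from 2631720 to 2641984 of chromosome 3L, an entry it shares with *MEP-1*, a gene for a zinc finger protein of chromatin complexes. *MEP-1* moved the other way, with 4.44 FPKM in *heph2* and 10.1 FPKM in the control, a log2 ratio of -1.19. In BDGP6 the annotated *CG42245* transcript is 5111 nucleotides long, the longest of all members, yet codes for only 151 amino acids. The standard TruSeq library kit does not mark strand, and how reads were divided between these genes was not tested. With a pseudocount of 1 on both FPKM values, the log2 ratio of *CG42245*, 6.32, became 2.12. The study lists the gene as 79.8-fold higher from the same reads, and reports that RT-PCR also found more of its RNA in *heph2*.

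Genes of defence, stress and muscle were among the members. *CG32185*, now *edin* (elevated during infection), encodes a small secreted protein that fly tissues make after infection. It had 18.04 FPKM in *heph2* and 3.93 FPKM in the control, a 4.59-fold ratio with a counting interval of 3.17 to 6.66. Its region (chromosome 3L from 17480223 to 17504793) is listed for *Oatp74D* too, which had 3.91 FPKM in *heph2* and 3.26 FPKM in the control. *CG7130*, a J-domain co-chaperone of the Hsp40 type, had 53.9 FPKM in *heph2* and 18.2 FPKM in the control, a 2.96-fold ratio (2.63 to 3.34). The heat shock list summed to 3153 FPKM in *heph2* and 1324 FPKM in the control. In it *Hsp68* had 228 FPKM in *heph2* and 52.9 FPKM in the control and *Hsp83* 606 FPKM in *heph2* and 503 FPKM in the control. *CG14168*, now *Zasp67*, encodes a PDZ-domain protein of the muscle Z-disc, where thin filaments are anchored. It had 19.6 FPKM in *heph2* and 4.65 FPKM in the control, a 4.22-fold ratio (3.81 to 4.68). Its paralog *Zasp66*, with 664 FPKM in *heph2* and 714 FPKM in the control, had a log2 ratio of -0.10. The 14 flight muscle genes summed to 30726 FPKM in *heph2* and 15617 FPKM in the control, with a median log2 ratio of 0.48. Among them *fln* had 3569 FPKM in *heph2* and 557 FPKM in the control, and *Act88F* 5100.01 FPKM in *heph2* and 1106 FPKM in the control. *TpnC4* had 2299 FPKM in *heph2* and 441 FPKM in the control. The log2 ratio of *Mhc* was 0.51, and those of *sls* (-0.27) and *bt* (-0.13) were below 0.

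Serine proteases made up 4 members, identified by the SP numbers that RefSeq lists among their synonyms. These trypsin-like enzymes are secreted, many of them into the gut lumen, where they digest dietary protein. *CG16749* had 94.8 FPKM in *heph2* and 44.4 FPKM in the control. *CG7542* had 74.9 FPKM in *heph2* and 33.2 FPKM in the control. *CG31269* had 13.6 FPKM in *heph2* and 6.66 FPKM in the control, and *CG10405* had 6.98 FPKM in *heph2* and 2.41 FPKM in the control, the largest of the 4 ratios at 2.90-fold (2.20 to 3.84). The 7 midgut protease genes of the marker list summed to 3506 FPKM in *heph2* and 2648 FPKM in the control. Genes with an SP number lay on both sides of 0. They were matched by synonym alone, and whether each encodes a protease was not checked. Of 46 genes with an SP number among the 2607, 4 were at least 2-fold higher and 6 at least 2-fold lower, with a median log2 ratio of -0.10. Over all of the 2607 genes the shares were 2.38% higher and 4.1% lower, and the median was -0.02. Over all chromosomes and without the upper limit on FPKM, 135 genes with an SP number were compared, of which 11 were at least 2-fold higher and 11 at least 2-fold lower, beside 2.79% higher and 2.44% lower over all genes compared. *CG8329* was at the low end among those on chromosome 3, with 24.4 FPKM in *heph2* and 74.9 FPKM in the control, and was named after its value was seen.

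Lipid-degrading enzymes were represented by *CG17191* and *CG6277*, which belong to a row of 7 lipase genes on chromosome 3R related to pancreatic lipase. *CG17191* (from 22844330 to 22845473) had 5.90 FPKM in *heph2* and 1.47 FPKM in the control, a 4.02-fold ratio (2.98 to 5.50). *CG6277* (from 22847791 to 22848934) had 68.5 FPKM in *heph2* and 33.8 FPKM in the control, a 2.03-fold ratio (1.89 to 2.17). Between them lies *CG6283*, which had less RNA in *heph2*, with 32.9 FPKM against 42.3 FPKM in the control. The flanking lipase genes differed too: *CG6295* had 198 FPKM in *heph2* and 121 FPKM in the control, *CG17192* had 5.05 FPKM in *heph2* and 4.37 FPKM in the control, and *CG6271* had 1.67 FPKM in *heph2* and 3.15 FPKM in the control. The last of the 7, *CG6296*, was under 1 FPKM in both. The 6 genes of this row above 1 FPKM, all on the same strand and coding for 337 to 341 amino acids, thus had log2 ratios from -0.91 to 2.01. *CG15533*, listed by RefSeq with the synonym aSMase (acid sphingomyelinase, which splits sphingomyelin into ceramide and phosphocholine), had 12.4 FPKM in *heph2* and 3.94 FPKM in the control. *CG31148*, now *Gba1a*, encodes a lysosomal glucocerebrosidase, the enzyme that removes glucose from glucosylceramide. It had 17.8 FPKM in *heph2* and 7.44 FPKM in the control, a 2.40-fold ratio (2.15 to 2.67). Its paralog *Gba1b* had 12.7 FPKM in *heph2* and 13.2 FPKM in the control.

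Alkaline phosphatases, which release phosphate from many substrates at the cell surface, gave a neighbouring pair. *CG5150*, now *Alp9* (chromosome 3L from 5588646 to 5590452), had 11.9 FPKM in *heph2* and 4.48 FPKM in the control, a 2.67-fold ratio (2.33 to 3.06). *CG10592*, now *Alp10* (from 5585841 to 5588372), had 11.9 FPKM in *heph2* and 5.38 FPKM in the control, a 2.21-fold ratio (1.94 to 2.52). The genes lie on opposite strands in BDGP6. Of 9 alkaline phosphatase genes compared over the genome, these 2 were at least 2-fold higher and 2 were at least 2-fold lower, beside 2.79% and 2.44% of all genes compared. The lower ones were *Alp4*, with 48.7 FPKM in *heph2* and 98.6 FPKM in the control, and *Alp2*, with 11.97 FPKM in *heph2* and 25.1 FPKM in the control.

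**Figure D3:**
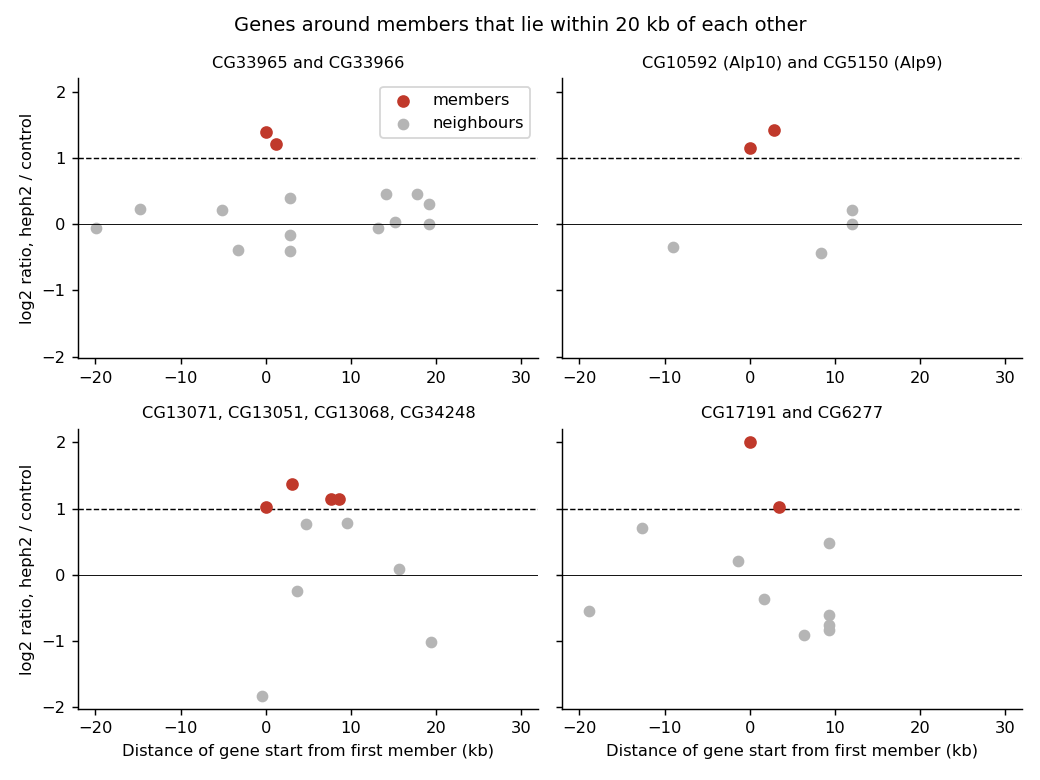
Log2 ratio of *heph2* to control for genes averaging 1 FPKM or more, against the distance in kb of their listed start from the first member, in the 4 places where members start within 20 kb of each other. Members (red) lie above the dashed line at 1, and the neighbours (grey) lie on both sides of 0, from -1.83 to 0.78.

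Members included 2 enzymes of glycine metabolism. *CG3999* encodes glycine dehydrogenase, the decarboxylating subunit of the mitochondrial glycine cleavage system. It had 12.9 FPKM in *heph2* and 5.86 FPKM in the control, a 2.20-fold ratio (2.01 to 2.41). *CG10361*, now *Gcat*, encodes glycine C-acetyltransferase, which forms glycine and acetyl-CoA in threonine breakdown, and had 21.9 FPKM in *heph2* and 10.6 FPKM in the control. The other genes of this chemistry, a list written after the values of the members were known, lay below 2-fold. Of the list's 7 genes only 3 met the other conditions of the rule. *CG6415*, the aminomethyltransferase subunit, had 28.6 FPKM in *heph2* and 15.9 FPKM in the control, and *Shmt*, the serine hydroxymethyltransferase, had 131 FPKM in *heph2* and 73.4 FPKM in the control. The threonine dehydrogenase *CG5955* differed least, with 9.43 FPKM in *heph2* and 8.17 FPKM in the control. The 7 genes had log2 ratios from 0.21 to 1.14, with a median of 0.84 beside 0.01 over all genes compared, and the lowest of them changed sign when ratios were scaled on mapped reads or on ribosomal protein genes. This median includes the 2 members, which the rule chose by their ratio, so it is a description only. Without the members, the log2 ratios of the list ran from 0.21 to 0.85.

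Other members of known families act in retinoid metabolism, sulfate transfer or the cell membrane. *CG7077*, now *rdhB*, encodes a retinol dehydrogenase used in making the visual chromophore. It had 71.2 FPKM in *heph2* and 26.2 FPKM in the control, a 2.72-fold ratio (2.52 to 2.94). Of other genes of this pathway, the carotenoid receptor gene *ninaD* on chromosome 2L had 109 FPKM in *heph2* and 23.5 FPKM in the control, and *Pdh* had 574 FPKM in *heph2* and 399 FPKM in the control. The log2 ratios of *santa-maria* (0.31), *ninaB* (0.18) and *ninaG* (0.17) were smaller. Thus 2 of the 6 retinoid genes were at least 2-fold higher, beside 2.79% of all genes compared. Their median log2 ratio was 0.42, beside 0.01 over all genes compared. The 6 include *rdhB*, which the rule chose by its ratio, so these values are a description only. *CG16733*, now *St2*, is a sulfotransferase gene, with 2.45 FPKM in *heph2* and 0.641 FPKM in the control. *CG6908*, of the ecdysteroid kinase-like family, had 56.0 FPKM in *heph2* and 24.3 FPKM in the control, while 1 of the 50 family genes compared was at least 2-fold higher and 3 were at least 2-fold lower. The share higher is near the 2.79% of all genes compared. *CG8745*, an aminotransferase gene, had 34.3 FPKM in *heph2* and 16.2 FPKM in the control. *CG9722*, now *Recs1*, encodes a multipass membrane protein of the BAX inhibitor motif family, and had 73.1 FPKM in *heph2* and 29.9 FPKM in the control. *CG11637*, now *NijB*, encodes a ninjurin, a small adhesion protein of the cell membrane. It had 1.47 FPKM in *heph2* and 0.556 FPKM in the control, a 2.65-fold ratio with a counting interval of 1.31 to 5.53, while *NijA* had 92.4 FPKM in *heph2* and 96.7 FPKM in the control.

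**Figure D4:**
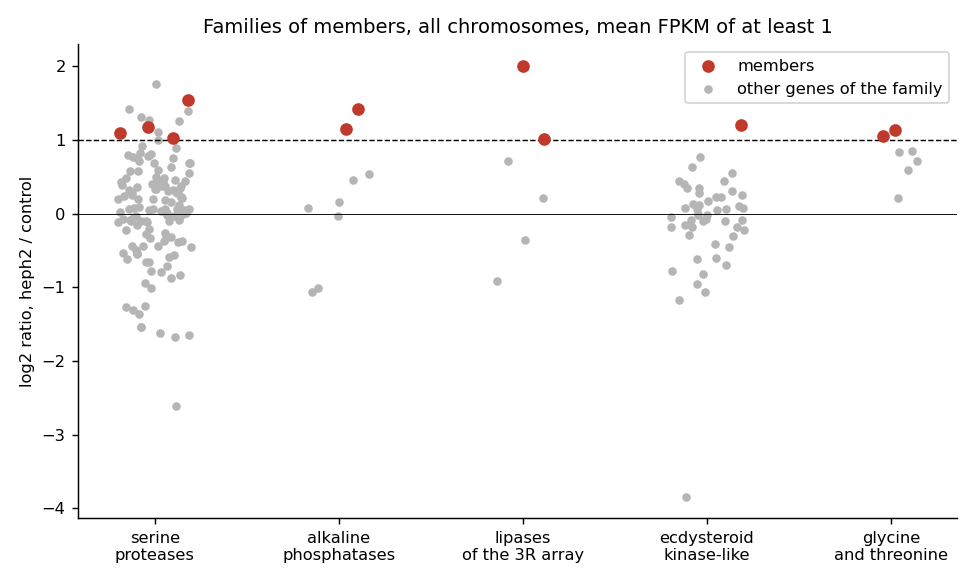
Log2 ratio of *heph2* to control for genes of 5 families averaging 1 FPKM or more on any chromosome, each point a gene and points spread sideways for visibility. Members (red) lie above the dashed line at 1. Other genes with an SP number, plotted as serine proteases, and of the ecdysteroid kinase-like family lie on both sides of 0. The glycine and threonine list was written after the values of its members were known.

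Within 9.05 kb of chromosome 3L lay 4 members, with 3 other genes between them. *CG13071* (from 16254853 to 16256220) had 16.9 FPKM in *heph2* and 8.34 FPKM in the control. *CG13051* had 2.73 FPKM in *heph2* and 1.06 FPKM in the control. *CG13068* had 14.1 FPKM in *heph2* and 6.38 FPKM in the control, and *CG34248* (to 16263898) had 4.83 FPKM in *heph2* and 2.18 FPKM in the control. Their annotated products are 69, 83, 109 and 98 amino acids long. Of 6 other genes averaging 1 FPKM or more within 20 kb, 3 were higher in *heph2*, and the log2 ratios of the 6 ran from -1.83 to 0.78. Of the genes in between, *CG13069* had 1.13 FPKM in *heph2* and 1.35 FPKM in the control, *CG4950* had 62.4 FPKM in *heph2* and 36.9 FPKM in the control, and *CG13070* averaged under 1 FPKM. *CG34247*, the gene just before *CG13071*, had 1.09 FPKM in *heph2* and 3.89 FPKM in the control, while *CG13067*, just after *CG34248*, had 188 FPKM in *heph2* and 109 FPKM in the control. *CG33965* and *CG33966*, a pair on chromosome 3L from 1232904 to 1235233 that once shared the name *CG1211*, were also both members. *CG33965* had 2.76 FPKM in *heph2* and 1.05 FPKM in the control, and *CG33966* had 15.3 FPKM in *heph2* and 6.61 FPKM in the control. Their 13 compared neighbours had log2 ratios from -0.41 to 0.46. The remaining 52 members started more than 20 kb from any other member.

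The 4 most abundant members in *heph2* have no function that the files or reference tables give. *CG14567* (chromosome 3L from 21730862 to 21731434) had 132 FPKM in *heph2* and 35.0 FPKM in the control, a 3.78-fold ratio (3.44 to 4.16). *CG14957* (chromosome 3L from 3187563 to 3189747) had 132 FPKM in *heph2* and 28.6 FPKM in the control, a 4.62-fold ratio (4.04 to 5.28), and shares its entry with *CG42525*, which had 0.811 FPKM in *heph2* and 0.543 FPKM in the control. *CG34242* had 117 FPKM in *heph2* and 56.2 FPKM in the control, the highest control level of all members, and its product of 58 amino acids is the shortest. *CG33494* had 101 FPKM in *heph2* and 34.9 FPKM in the control. *CG32407* had 80.1 FPKM in *heph2* and 39.4 FPKM in the control. Among large ratios, *CG9616* had 52.0 FPKM in *heph2* and 14.4 FPKM in the control, while *CG8100* had 8.81 FPKM in *heph2* and 2.48 FPKM in the control. *CG31463* had 8.33 FPKM in *heph2* and 2.52 FPKM in the control. *CG13678* had 2.33 FPKM in *heph2* and 0.543 FPKM in the control, a 4.29-fold ratio (1.94 to 10.4).

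A further 13 members, between 2.04-fold and 2.84-fold higher, spanned the range of levels. *CG32155*, now *l(3)72Dp* and named for a lethal locus, had 13.4 FPKM in *heph2* and 6.19 FPKM in the control. *CG3348* had 69.6 FPKM in *heph2* and 30.7 FPKM in the control, while *Hmu*, which shares its region, had 39.7 FPKM in *heph2* and 52.7 FPKM in the control. *CG34288*, with a product of 59 amino acids, had 67.8 FPKM in *heph2* and 24.4 FPKM in the control. Other members coded for small products too. *CG34253* had 58.4 FPKM in *heph2* and 23.8 FPKM in the control, *CG14369* had 40.6 FPKM in *heph2* and 18.6 FPKM in the control, and *CG15212*, with a product of 63 amino acids, had 12.9 FPKM in *heph2* and 5.37 FPKM in the control. At the other end of length, *CG12105*, with a product of 1509 amino acids, had 9.05 FPKM in *heph2* and 4.29 FPKM in the control. Of middle level were *CG3397*, with 46.3 FPKM in *heph2* and 17.2 FPKM in the control, *CG31446*, with 38.9 FPKM in *heph2* and 14.8 FPKM in the control, and *CG6310*, with 23.3 FPKM in *heph2* and 9.15 FPKM in the control. Low members included *CG13036*, with 6.39 FPKM in *heph2* and 2.25 FPKM in the control, *CG7906*, with 3.66 FPKM in *heph2* and 1.74 FPKM in the control, and *CG31089*, with 1.92 FPKM in *heph2* and 0.943 FPKM in the control.

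The reads behind the members ranged from about 3 to about 1776 in the control. Low values of the table move by whole reads. Of 3901 genes that averaged under 5 FPKM, 119 had a log2 ratio of 0.63, the value at which 1 *heph2* read stands against 1 control read, so that 1 *heph2* read weighed 1.54 times as much as 1 control read. A 2-fold ratio of FPKM was therefore reached with 1.30 *heph2* reads for each control read. The median was about 492 *heph2* reads and 263 control reads, and 40 of the 62 had at least 100 control reads. In 58 members the counting interval of the ratio lay above 1, and in 30 it lay above 2. The rule chose the members by this same ratio, so these counts describe read depth and are no check of the differences. For 6 members the ratio was that of small whole numbers of reads, within a log2 tolerance of 3e-05. *CG14368* and *CG14244* both stood at 2 *heph2* reads to 1 control read, *CG14374* at 3 to 2, *CG13051* at 5 to 3, and *CG14515* and *CG14673* at 8 to 5, or multiples of these. *CG14244*, with about 6 *heph2* reads and 3 control reads, had a ratio of 3.09 with a counting interval of 0.659 to 19.1. The intervals of *CG14368*, *CG14374* and *CG13051* also reached below 1, so that their differences were not distinguishable from none at this depth.

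The members were short compared with the genes they were chosen from. Their median transcript length in BDGP6 was 994 nucleotides, against 1578 nucleotides over the other genes of the 2607, and the median product was 264 amino acids, against 405 amino acids. Products of up to 150 amino acids were annotated for 19 of 57 members (33.3%), against 196 of 2378 other genes (8.24%). Members made up a smaller share of longer genes, with 12 of 72 genes of up to 500 nucleotides, 17 of 450 genes of 500 to 1000 nucleotides, 21 of 1090 genes of 1000 to 2000 nucleotides, 4 of 467 genes of 2000 to 3000 nucleotides and 3 of 366 longer genes. This was not particular to them. On chromosome 3 the share at least 2-fold lower also was 9.72% in the shortest class and 0.820% in the longest, and on chromosomes X, 2 and 4 the share at least 2-fold higher was 6.41% in the shortest class and 0.805% in the longest. Log2 ratios varied with length among all 2445 CG-named chromosome 3 genes with a length, whose median was 0.40 in the shortest class and -0.23 in the longest. Relative to the median of 10 classes of transcript length, 37 of the 57 members with a length were still at least 2-fold higher. The part of transcript length in the differences was not tested.

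**Figure D5:**
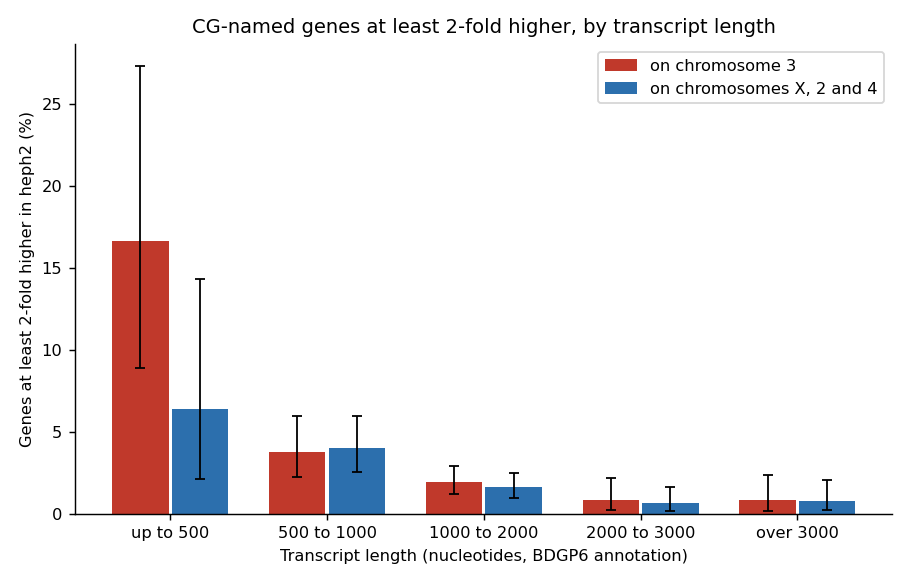
Share of CG-named genes that were at least 2-fold higher in *heph2*, by transcript length, on chromosome 3 (red, the members) and on chromosomes X, 2 and 4 (blue), among genes with a mean FPKM from 1 to 100. Bars start at 0 and error bars are 95% exact binomial intervals, which cover counting of genes only. The chromosome 3 share was 16.7% up to 500 nucleotides and 0.820% over 3000 nucleotides.

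CG-named genes on chromosome 3 were set beside those elsewhere. The share at least 2-fold higher in *heph2* was 2.38% on chromosome 3 (exact binomial interval 1.83 to 3.04). On chromosomes X, 2 and 4 it was 58 of 3168 CG-named genes in the same FPKM window (1.83%, 1.39 to 2.36). These intervals cover counting of genes only, and the shares were not tested against each other. Of 1778 genes with other names on chromosome 3, 1.69% were at least 2-fold higher. In the opposite direction, 107 of 2607 CG-named genes on chromosome 3 were at least 2-fold lower in *heph2* (4.1%), against 1.64% of those elsewhere. On the left arm 32 of 1156 genes were members (2.77%), and on the right arm 30 of 1451 (2.07%). Of the 62 members, 10 share their listed region with another gene. In 1 of these regions, the pair *CG34316* and *mRpS10* (chromosome 3R from 11055378 to 11057408), both genes were at least 2-fold higher. *CG34316*, with the RefSeq synonym JHBP, had 12.1 FPKM in *heph2* and 5.87 FPKM in the control, and *mRpS10*, a mitochondrial ribosomal protein gene, had 84.5 FPKM in *heph2* and 40.7 FPKM in the control. In the other 9 regions the partners had log2 ratios from -1.19 to 0.58.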

How the data were processed

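RNA-Seq libraries of poly(A)+ RNA from *heph2* homozygous and *heph2/TM3* control males, 1 of each, were analysed. According to the submitters' processing notes and the methods of the study, the authors mapped reads with TopHat2 2.0.4 to FlyBase r5.44, and deposited gene-level FPKM values from Cufflinks 2.0.0. A further column holds the log2 ratios of the authors and was not used. Read counts and the depth of each library are not part of the table.

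The log2 ratio was computed without a pseudocount. Reads per gene were estimated from the FPKM of 1 read on 1 kb (0.0331 in *heph2*, 0.0214 in the control) and the BDGP6 transcript length, cut to the r5.44 locus length where the gene is alone in its locus, with fragments of 200 ± 80 bases. These are approximate. BDGP6 matched 13462 of 14794 identifiers and was used for symbols, strands, gene types, exon counts and lengths only. Locus starts count from 0 (locus length equal to BDGP6 in 1489 of 8716 genes, against 146 if counted from 1), so 1 was added. Sequences were not used here, so the planned sequence features were not analysed. RefSeq symbols of assembly Release 6 gave families. The planned groups by product name found none of the 62 members, as the tables hold symbols only.

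Genes were named if they had the 12 largest ratios, the 8 highest *heph2* values, lay beside the threshold or within 20 kb of another member, had a name or family, or were named by the study (*CG42245*). Some other members are named by role or read ratio after their values were seen. Members and lists were chosen with earlier results of these data known. Alternatives were pseudocounts of 0.1 and 1, other FPKM limits, 4 other scalings, genes alone in their locus, and 3-fold. Python 3.11.15, numpy 2.4.6, pandas 2.3.3, scipy 1.17.1 and matplotlib 3.10.9 were used, and the calculations were tested on simulated data.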

Additional observations from a re-analysis of the deposited data

How the results depend on the processing

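The number of members was 62, and the median log2 ratio over them was 1.29. It was between 0.85 and 1.25 under pseudocounts, on mapped reads, on ribosomal protein genes and within length classes. Centring on all genes takes only 0.01 from every log2 ratio. Over the 52 genes alone in their locus the median was 1.29. The number was 60 with a pseudocount of 0.1, 62 centred on all genes, 44 with a minimum of 5 FPKM and 42 with a pseudocount of 1. It was 128 without FPKM limits, 32 on mapped reads (which takes 0.28 from every log2 ratio), 19 on ribosomal protein genes (which takes 0.44 from every log2 ratio), 39 within length classes (37 of them members) and 14 at 3-fold. The share on chromosome 3 then was 3.74%, 1.23%, 0.729%, 1.60% and 0.537%, with 1.61% at a pseudocount of 1 and 3.18% for genes alone in their locus. The share elsewhere was 3.51%, 1.04%, 0.663%, 1.35% and 0.379%, with 1.29% at a pseudocount of 1 and 2% (40 of 2000) for genes alone in their locus. No sign change was possible under these settings, given the rule. Of the members, 7 of low level, *CG42245* among them, moved by over 1.5-fold with a pseudocount of 1. The cause was not tested beyond the fixed shifts. No paired analysis was possible because each genotype has 1 library. Depth limits the members with under 20 control reads, of which there were 8.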

Other observations

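The FPKM limits of the rule left out other genes at least 2-fold higher in *heph2*. Without FPKM limits, the share at least 2-fold higher was 3.74% of CG-named genes on chromosome 3 and 3.51% of those elsewhere. Shares under 1 FPKM and above 100 FPKM outside chromosome 3 are not given here. Of 382 CG-named chromosome 3 genes with a value in both libraries and a mean under 1 FPKM, 41 were at least 2-fold higher. Few reads stand behind a value at that level. Of 437 CG-named chromosome 3 genes with a mean above 100 FPKM, 25 were at least 2-fold higher. Among them were genes since named for the respiratory chain. *CG32230*, now *ND-MLRQ*, a complex I subunit gene, had 6758 FPKM in *heph2* and 2343 FPKM in the control. *CG7630*, now *COX7B*, had 4260 FPKM in *heph2* and 1609 FPKM in the control, and *CG3321*, now *ATPsynE*, had 2752 FPKM in *heph2* and 912 FPKM in the control. *CG14375*, now *CCHa2*, a peptide hormone gene, had 358 FPKM in *heph2* and 114 FPKM in the control. The largest of these ratios was that of *CG31468*, with 2770 FPKM in *heph2* and 785 FPKM in the control. How many respiratory chain genes above 100 FPKM were not 2-fold higher was not counted. These genes were chosen after their values were seen.

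A further 17 CG-named chromosome 3 genes had a value in *heph2* but were listed at 0 in the control, against 59 with a value in the control alone. Of the 17, *CG42455* (chromosome 3L from 9965343 to 9967123) had the highest value, 1.80 FPKM in *heph2*, and the other 16 had at most 0.464 FPKM.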
